A study of Homo sapiens with 2 samples.

Results

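The tumour necrosis factor (TNF) superfamily and the components of NF-κB signalling were described by 66 of the 58735 genes in a count table from PLC8024 cells. The rule took every protein-coding gene whose symbol named a TNF superfamily ligand or receptor by number, together with a list of further ligands, receptors, TRAF adaptors, IKK and NIK kinases, NF-κB subunits and inhibitors. It used no measured value, but the members were chosen with earlier results of these data known. PLC8024, which the methods of the study also call PLC/PRF/5, is an established cell line of hepatocellular carcinoma (HCC) with epithelial morphology. RNA sequencing gave 1 library of each genotype. The MAEL WT library came from wildtype cells that the labels give as non-treated. The MAEL KO library came from cells transfected with an all-in-one plasmid for Cas9 and an sgRNA against MAEL, a cancer/testis antigen gene, then sorted for the plasmid's mCherry signal and grown as single clones. Whether the wildtype cells were also sorted or cloned is not given in the sources used here, so the effects of the deletion, of cloning and of the library cannot be told apart. With 1 library per genotype no difference has a replicate check and no p-value is given.

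Ligands of the TNF superfamily are trimers, mostly held in the cell membrane, that cluster their receptors. Some receptors carry a death domain and can start apoptosis. Others bind TRAF adaptors, which hold ubiquitin ligases. In the canonical branch the IKK complex of CHUK, IKBKB and IKBKG removes IκB inhibitors and frees dimers such as those of RELA and NFKB1. In the non-canonical branch receptors such as LTBR and CD40 stabilise the kinase NIK, encoded by MAP3K14, and NFKB2 is processed to partner RELB. In the liver these routes are known for hepatocyte death, inflammation and regeneration.

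The libraries held 19904136 (MAEL WT) and 20833332 (MAEL KO) counts in total. MAEL itself had 1 count in MAEL WT and 0 in MAEL KO. Both lay within the floor of 3 counts, the upper limit that a count of 0 allows, so the transcript of the targeted gene could not check the genotype labels. All 9 hepatocyte markers and all 5 epithelial markers examined had more than 3 counts in at least 1 library. The summed FPKM (fragments scaled to gene length and library size) of the hepatocyte markers was 1643 in MAEL WT and 4879 in MAEL KO, and that of the epithelial markers was 219.9 and 363.6. The epithelial markers KRT8, KRT18 and CDH1 were higher in MAEL KO. EPCAM (15 counts in MAEL WT and 0 in MAEL KO) and KRT19 (13 and 1) went the other way. Of 12 leukocyte markers, 6 had more than 3 counts, with a summed FPKM of 34.18 and 22.87, nearly all of it from LYZ. The leukocyte marker PTPRC had 3 counts in MAEL WT and 0 in MAEL KO, and CD3D, CD3E and MS4A1 had 0 in both. Of 5 endothelial markers 2 had more than 3 counts, and of 6 fibroblast or stellate markers 3 did, each set with a summed FPKM under 3 in both libraries.

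Promoter windows of 300 bases, from 250 bases before to 50 bases after a transcript start, were taken from RefSeq (GRCh38.p14) for 48 of the 66 genes. Not matched were CD40, CD70, IKBKB, NFKBIE, NGFR, RELB, TNFRSF10A, TNFRSF10B, TNFRSF10C, TNFRSF10D, TNFRSF11B, TNFRSF12A, TNFRSF13C, TNFRSF17, TNFRSF4, TNFSF12, TNFSF12-TNFSF13 and TNFSF8. The κB consensus of 10 bases, to which NF-κB dimers bind, was searched on both strands, and overlapping matches were counted separately. The stretches shown are those of TNFRSF9, TNFSF14 and LTBR, which had much lower counts in MAEL KO, of the inhibitor gene with higher counts, and of inhibitor genes known as feedback targets. Capitals mark the κB matches, and each stretch is written 5′ to 3′ on the strand of its gene. Stretches run to 30 bases on either side of the matches within the window, or are cut to at most 30 bases in all where they meet an annotated exon. Those of TNFRSF9, TNFSF14 and TNFAIP3 lie wholly within annotated exons. The windows of LTA and TNFSF11, which were also lower past the threshold used below, held no match and are not shown. LTBR held no match either, and the start of its window up to the first exon base is shown. The LTBR window was set on a transcript start at 6384162, within the annotated gene, which begins at 6375045. Starts further upstream in LTBR were not searched. Of the 48 window starts, 37 were found in a transcript of the GENCODE 29 annotation.
TNFRSF9, chr1:7940894-7940922, minus strand: agctgtggtGGGAATTTCCCatgagaccc
TNFSF14, chr19:6670333-6670361, minus strand: gggaaagctGGGGGCTCCCCactgcactt
NFKBIZ, chr3:101827740-101827806, plus strand: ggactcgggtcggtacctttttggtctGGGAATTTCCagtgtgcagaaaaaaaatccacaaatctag
NFKBIA, chr14:35404791-35404860, minus strand: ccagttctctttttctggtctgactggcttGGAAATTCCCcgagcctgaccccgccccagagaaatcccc
TNFAIP3, chr6:137867188-137867217, plus strand: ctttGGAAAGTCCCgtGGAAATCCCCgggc
BIRC3, chr11:102317255-102317388, plus strand: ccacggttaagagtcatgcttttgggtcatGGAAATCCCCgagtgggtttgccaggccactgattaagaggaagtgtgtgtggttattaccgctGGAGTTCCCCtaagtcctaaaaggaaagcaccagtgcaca
LTBR, chr12:6383912-6384032, plus strand: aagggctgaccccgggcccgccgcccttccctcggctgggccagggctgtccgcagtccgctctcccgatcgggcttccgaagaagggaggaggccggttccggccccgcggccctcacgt

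A κB match was found in 12 of the 48 windows (25%), against 3956 of all 35116 RefSeq promoter windows of the same length (11.3%). At least 2 matches were found in 7 of the 48 (14.6%), against 2.04% of all windows. In TNFRSF9, TNFSF14, REL and TNFRSF14 these matches overlapped at a single site, and in BIRC3, TNFAIP3 and LTB they were separate. How many of all windows held overlapping matches was not counted. The windows of ligand and receptor genes held a match in 5 of 28 cases and those of the TRAF, kinase, subunit and inhibitor genes in 7 of 20. Windows with a match that are not shown above were those of LTB, NFKB1, REL, TNFRSF14, TNFRSF25 and TRAF3. The 10 letters GGGAATTTCC stood in the windows of TNFRSF9 and NFKBIZ and, on the opposite strand, in that of NFKBIA. The counts of these genes went from 781 to 43, from 303 to 923 and from 1170 to 1011. The same letters thus stood in windows of a gene with lower, a gene with higher and a gene with nearly equal levels after scaling. In TNFRSF9 the letters lie within an annotated exon. The part of the motif in these levels was not tested.

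The comparison of MAEL KO with MAEL WT asked how transcript levels of the family differed after knockout. Counts were scaled by TMM factors (a trimmed mean of ratios between libraries) to a common library size, and the log2 fold change (log2FC) was taken with 1 added to both levels. A negative log2FC means a lower level in MAEL KO. A gene was counted as past the threshold when its log2FC exceeded 2 in size, the fold threshold of the study's methods. Of the 66 genes, 48 had at least 10 counts in at least 1 library. Among these 48, no gene was higher and 5 genes were lower past the threshold, namely LTBR, TNFRSF9, LTA, TNFSF14 and TNFSF11. The 5 made up 10.4%, beside a background of 5.64% lower and 2.16% higher among all 17887 genes that met the same count minimum, and of 4.93% lower and 1.96% higher among the 13700 protein-coding genes. Scaling by total counts instead gave 1309 lower and 269 higher genes past the threshold, in place of 1008 and 387, and moved the median log2FC of all genes from -0.04 to -0.31. With LTA, which had 0 counts in MAEL KO, taken at its bound against 3 counts instead of its fitted value, 4 genes (8.33%) were lower past the threshold, beside 5.21% of all genes treated in the same way. In bulk RNA, fewer cells that express a gene and less RNA per cell cannot be told apart.

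At a log2FC of 1, 11 of the 48 genes were lower (22.9%) and 5 were higher (10.4%). The background at this value was 16.5% lower and 10.2% higher among all genes, and 13.5% lower and 9.41% higher among protein-coding genes. The share of higher genes was close to the background. The median log2FC of the 48 genes was -0.45, with 33 below 0 and 15 above, while the median of all genes was -0.04 and that of protein-coding genes 0.02. The 95% Clopper-Pearson interval of each gene, which covers counting error only, lay wholly below 0 for 29 genes, wholly above 0 for 11 and included 0 for 8. The scatter of both libraries shows most of the family along the diagonal and LTBR, TNFRSF9 and TNFSF14 far under it.

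**Figure D1:**
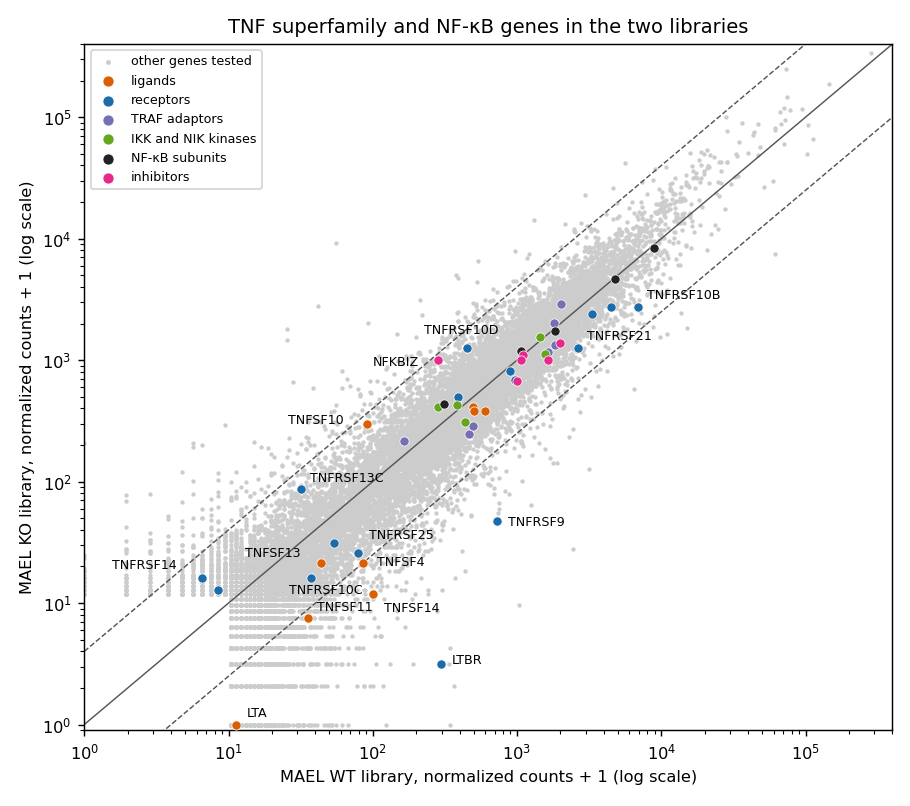
Normalized counts plus 1 of each gene in MAEL WT (x axis) and MAEL KO (y axis), both on log scales, with the 48 family genes coloured by role and other genes in grey. The solid line marks equal levels and the dashed lines log2FC 2 either way, and 5 family genes (LTBR, TNFRSF9, LTA, TNFSF14 and TNFSF11) lie under the lower dashed line and none above the upper one.

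Differences were found mainly among ligands and receptors. Of 43 ligand and receptor genes, 25 met the count minimum, with a median log2FC of -0.73, 11 lower and 4 higher past 1 in size. All 23 TRAF, kinase, subunit and inhibitor genes met the minimum, with a median of -0.08, and 22 of them lay within 1 of no difference. The exception was NFKBIZ. Among all genes that met the minimum, 13109 of 17887 lay within 1. The intracellular genes had more counts, with 15 of 23 reaching 1000 in a library against 6 of 25 ligand and receptor genes, and 3 of those 6 (TNFRSF10B, TNFRSF10D and TNFRSF21) differed by more than 1. Of all 5516 genes that reached 1000 counts, 860 differed by more than 1. Neither contrast between the groups of roles was tested, since genes are not replicates.

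**Figure D2:**
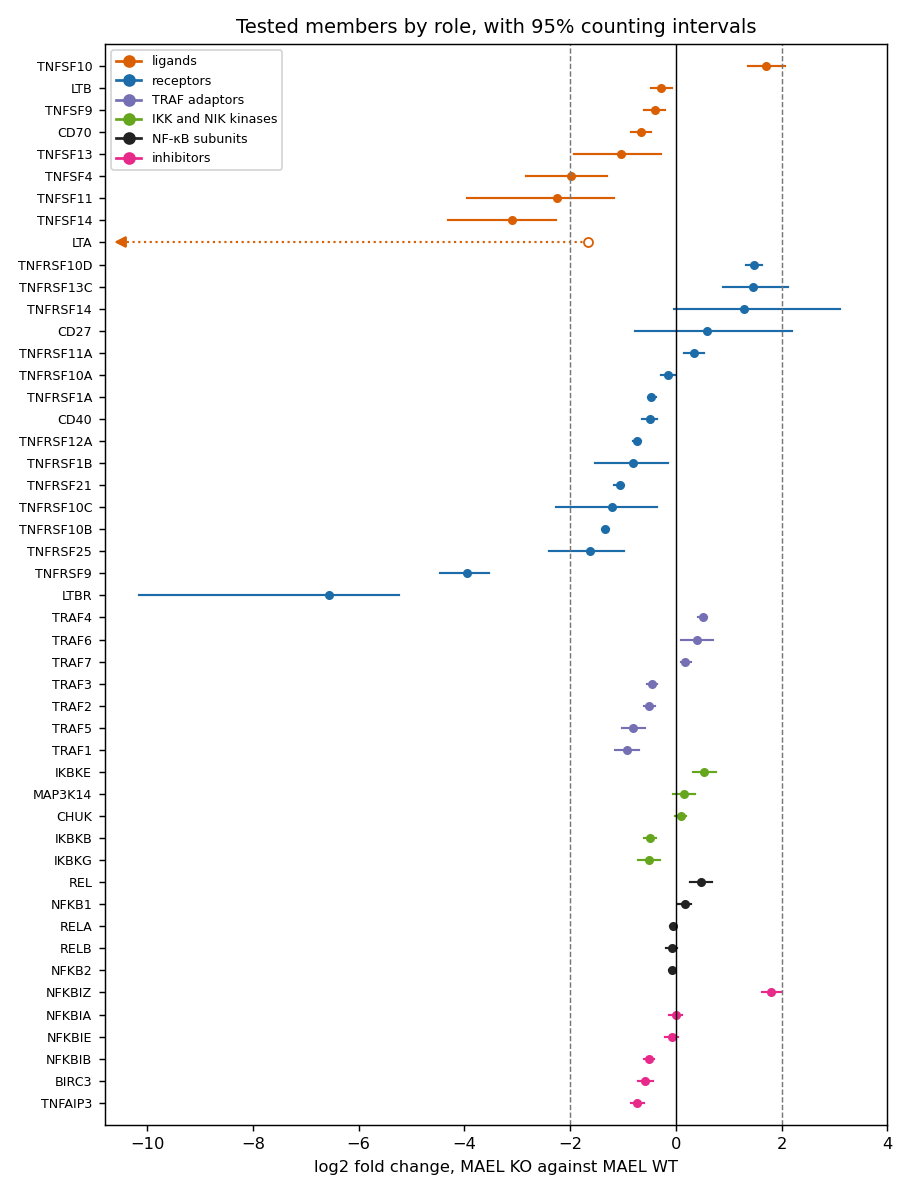
Log2FC between the libraries (x axis, negative where MAEL KO is lower) for the 48 family genes with at least 10 counts, grouped and coloured by role, with 95% Clopper-Pearson counting intervals as bars and dashed lines at 2 in either direction. The open circle with a dotted arrow gives LTA at its bound against 3 counts, and values of ligands and receptors spread widely while the other roles, apart from NFKBIZ at 1.81, lie within 1 of 0.

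The lymphotoxin and LIGHT axis held 3 of the 5 genes past the threshold by fitted value, among them LTBR with the lowest fold of the 48. For LTA, another of the 3, the bound given below was short of the threshold. LTBR, the receptor for the lymphotoxin heterotrimer and for LIGHT, lies on chromosome 12 from 6375045 to 6391571 on the plus strand (GRCh38). It had 318 counts in MAEL WT and 2 in MAEL KO, or an FPKM of 2.315 and 0.0168. Its normalized count was 137-fold lower in MAEL KO (95% counting interval 37.7 to 1140). TNFSF14, which encodes LIGHT, had 107 and 10 counts, log2FC -3.10 (interval -4.31 to -2.27). LTA, the secreted lymphotoxin chain, had 11 and 0 counts and was at least 3.17-fold lower against the floor of 3 counts. LTB, which anchors lymphotoxin in the membrane, did not share these low values, with 534 and 381 counts and log2FC -0.28 (interval -0.47 to -0.08). TNFRSF14, another receptor for LIGHT, stood at 6 and 14 counts, with an interval of -0.04 to 3.10 that included 0. Thus LTBR and LTA had fewer than 3 counts in MAEL KO, whereas LTB was well read in both libraries.

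The genes around LTBR gave mixed values. TNFRSF1A, the main TNF receptor of epithelial cells, lies 32931 bases before LTBR and had 3555 and 2238 counts, log2FC -0.46 (interval -0.53 to -0.38). SCNN1A, a sodium channel gene whose exons overlap 6.72% of the exon bases of LTBR on the opposite strand, had 155 and 58 counts and log2FC -1.19. The lincRNA AC005840.2, just downstream of LTBR, had 15 and 0 counts. TAPBPL, a peptide-loading gene on the far side, had 123 and 30 counts (-1.79), while VAMP1 next to it had 272 and 163 (-0.53) and PLEKHG6 upstream had 91 and 53 (-0.56). CD27, a costimulatory receptor in the same stretch, had 8 and 11 counts. Of the neighbours named here, CD27 was the exception to a negative log2FC, and those with counts in both libraries lay well above the value of LTBR.

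TNFRSF9, a costimulatory receptor best known from activated T cells, had 781 counts in MAEL WT and 43 in MAEL KO, or an FPKM of 5.64 and 0.3583. It was 15.4-fold lower in MAEL KO, log2FC -3.94 (interval -4.45 to -3.53). Its ligand TNFSF9 had 540 and 353 counts and log2FC -0.40 (interval -0.60 to -0.21), so the receptor and not the ligand passed the threshold. The T cell markers CD3D and CD3E had 0 counts in both libraries. CD70, a ligand whose gene lies 47255 bases from TNFSF9, had 640 and 352 counts (-0.65, interval -0.84 to -0.46).

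TNFSF11, the osteoclast factor RANKL, had 37 and 6 counts, log2FC -2.25 with a wide interval of -3.95 to -1.16. Its receptor TNFRSF11A had 417 and 459 counts and log2FC 0.35 (interval 0.15 to 0.54). TNFSF4, a costimulatory ligand, stayed just short of the threshold with 90 and 19 counts, log2FC -1.98 (interval -2.83 to -1.31), and passed it by total counts (-2.25) and with 0.1 in place of 1 added (-2.03). TNFSF13, the B cell factor APRIL, had 46 and 19 counts (-1.03), and 55.5% of its exon bases are shared with the readthrough gene TNFSF12-TNFSF13, which had 0 counts in both. At these depths the intervals of TNFSF11 and TNFSF4 contained values on both sides of the threshold. The gene TNFRSF13C, a B cell survival receptor, went the other way with 33 and 80 counts, log2FC 1.46 (interval 0.89 to 2.12).

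The death receptors differed among themselves. TNFRSF25 had 84 and 23 counts, log2FC -1.62 (interval -2.39 to -0.98), and TNFRSF21 had 2836 and 1172 counts (-1.06, interval -1.16 to -0.97). TNFRSF1A, given above, was at -0.46. FAS and its ligand FASLG had 0 counts in both libraries, and so did TNF, which lies between LTA and LTB on chromosome 6. Transcripts of these 3 genes were not detectable at this depth, and a count of 0 allows a level of up to 0.151 CPM in MAEL WT and 0.144 CPM in MAEL KO, which are 3 counts of each library.

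The clustered genes of the TRAIL receptors differed in both directions, and TNFSF10, which encodes the ligand TRAIL, lies on another chromosome. TNFSF10 had 97 counts in MAEL WT and 274 in MAEL KO, log2FC 1.70 (interval 1.37 to 2.06). The death receptor gene TNFRSF10B had 7425 and 2554 counts, or an FPKM of 65.81 and 26.12, and was 2.51-fold lower (log2FC -1.33, interval -1.39 to -1.26). TNFRSF10D, a decoy receptor with a truncated death domain, had 481 and 1162 counts, or an FPKM of 6.216 and 17.32, and was 2.79-fold higher (1.48, interval 1.33 to 1.64). TNFRSF10A, the other TRAIL death receptor, had 965 and 754 counts (-0.15, interval -0.28 to -0.01). TNFRSF10C, a decoy receptor without a cytoplasmic domain, was low, with 39 and 14 counts (-1.21, interval -2.26 to -0.35), and 39.3% of its exon bases are shared with other annotated genes. These 4 receptor genes lie side by side on chromosome 8 with gaps of 33411, 18151 and 26422 bases in the order TNFRSF10B, TNFRSF10C, TNFRSF10D and TNFRSF10A, and they are related in sequence, so reads of the more similar copies may be divided uncertainly.

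Per gene length, TNFRSF10B made up 74.8% of the summed FPKM of the 4 TRAIL receptors in MAEL WT and 45.6% in MAEL KO. The share of TNFRSF10D was 7.07% and 30.2%, and that of TNFRSF10A 17% and 23.5%. The sum itself was 87.93 in MAEL WT and 57.31 in MAEL KO. The decoy receptor TNFRSF10D was thus below TNFRSF10A in MAEL WT and above it in MAEL KO, as the bars of TRAIL and its receptors show.

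**Figure D3:**
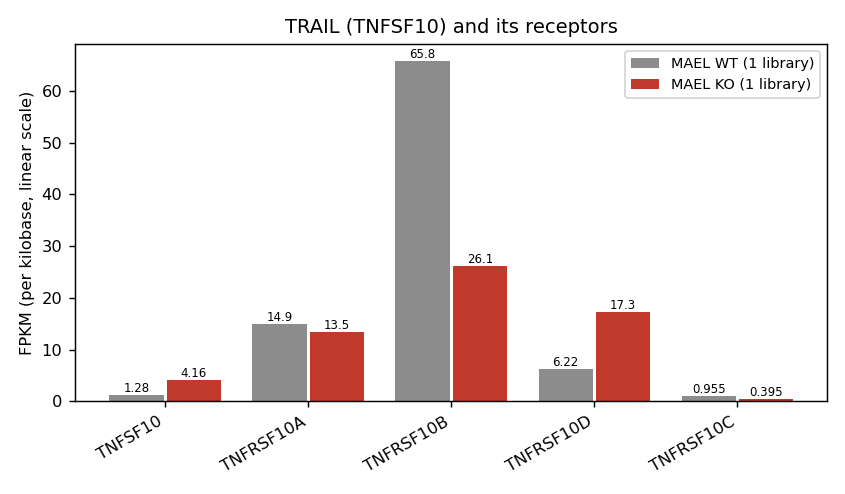
FPKM (y axis, linear) of TNFSF10, which encodes TRAIL, and of its 4 receptor genes in MAEL WT (grey) and MAEL KO (red), 1 library each and no error bars. TNFRSF10B goes from 65.8 to 26.1, TNFRSF10D from 6.22 to 17.3 and TNFRSF10A from 14.9 to 13.5.

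Of the other receptors, TNFRSF12A, the receptor for TWEAK, had the highest FPKM of the 66 genes in MAEL WT, at 119.2, and was behind NFKB2 in MAEL KO, at 71.78 (4820 and 2515 counts, log2FC -0.73, interval -0.80 to -0.66). The gene of its ligand, TNFSF12, had 2 and 0 counts. CD40, a receptor of the non-canonical branch, had 1037 and 638 counts (-0.49, interval -0.63 to -0.35). TNFRSF1B, the TNF receptor of leukocytes, had 57 and 28 counts (-0.80, interval -1.52 to -0.14). The summed FPKM of the 26 receptor genes was 315.3 in MAEL WT and 194.6 in MAEL KO, and most of that difference came from TNFRSF12A and TNFRSF10B. The summed FPKM of the 17 ligand genes was 55.09 and 41.51, with CD70, LTB and TNFSF9 as the main parts in both libraries.

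The remaining ligand and receptor genes were not read at levels that allow a comparison. Along with TNF, FAS and FASLG, the ligands TNFSF8, TNFSF15, TNFSF18 and TNFSF12-TNFSF13 and the receptors TNFRSF13B and TNFRSF6B had 0 counts in both libraries. All exon bases of TNFRSF6B and of TNFSF12-TNFSF13 are shared with other genes, so reads from them could be assigned elsewhere. Another 9 genes stayed under the count minimum, with at most 7 counts in a library. They were NGFR (7 and 0), TNFRSF8 (5 and 0), TNFRSF18 (4 and 0), TNFRSF4 (2 and 5), TNFSF12, TNFSF13B, TNFRSF11B, TNFRSF17 and TNFRSF19. Several of them, such as TNFSF8, TNFRSF8 and TNFRSF17, are known from lymphocytes.

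The NF-κB subunits were nearly level. NFKB2, the precursor of the non-canonical branch, had 9515 and 7792 counts, or an FPKM of 97.02 and 91.66 (log2FC -0.08, interval -0.12 to -0.03). RELA, the main activating subunit, had 5101 and 4273 counts (-0.05, interval -0.10 to 0.01), and its partner NFKB1 had 1137 and 1104 (0.17, interval 0.05 to 0.29, but -0.11 by total counts). RELB, the partner of processed NFKB2, had 1969 and 1610 counts (-0.08, interval -0.18 to 0.02). REL, the subunit of lymphoid cells, had 334 and 400 counts (0.47, interval 0.26 to 0.68), with 43.3% of its exon bases shared with an unnamed gene on the same strand. The summed FPKM of the 5 subunits was 178.8 in MAEL WT and 171.8 in MAEL KO, and NFKB2 held 54.3% and 53.4% of it. These are transcript levels and carry no information on phosphorylation or nuclear entry of the proteins.

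The kinases upstream lay within 0.6 of no difference, but by total counts IKBKB was at -0.77 and IKBKG at -0.78. CHUK had 1552 and 1437 counts (log2FC 0.10, interval -0.01 to 0.20, but -0.18 by total counts), IKBKB had 1677 and 1032 (-0.49, interval -0.60 to -0.38) and IKBKG, the scaffold of the complex, had 470 and 287 (-0.50, interval -0.72 to -0.29). IKBKG has a near-identical copy, the pseudogene IKBKGP1, so its counts are uncertain. IKBKE, a related kinase of innate immunity, had 302 and 381 counts (0.54, interval 0.32 to 0.77). MAP3K14, which encodes NIK, had 410 and 395 counts (0.16, interval -0.05 to 0.36, but -0.12 by total counts), and 12.3% of its exon bases are shared with an antisense gene.

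Among the inhibitors NFKBIZ stood apart. NFKBIZ, an atypical nuclear IκB protein that acts with NF-κB on selected target genes, had 303 counts in MAEL WT and 923 in MAEL KO, or an FPKM of 2.347 and 8.249. Its log2FC was 1.81 (interval 1.63 to 2.01), the highest of the 48 genes. The cytoplasmic inhibitor NFKBIA had 1170 and 1011 counts (0.00, interval -0.12 to 0.12) and NFKBIE had 1146 and 934 (-0.08, interval -0.21 to 0.04). NFKBIB had 2112 and 1281 counts (-0.51, interval -0.61 to -0.41). TNFAIP3, a ubiquitin-editing enzyme that ends the signal, had 1769 and 923 counts (-0.73, interval -0.84 to -0.61), and BIRC3, a ubiquitin ligase bound to TRAF2, had 1070 and 619 (-0.58, interval -0.72 to -0.44). NFKBIZ held 2.71% of the summed FPKM of the 4 IκB genes in MAEL WT and 10.5% in MAEL KO, while that sum was 86.74 and 78.88.

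**Figure D4:**
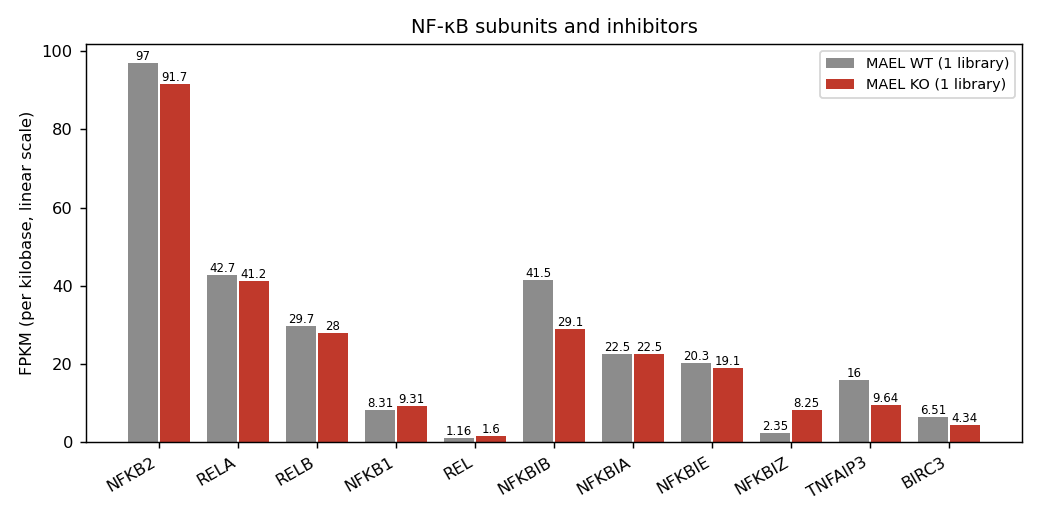
FPKM (y axis, linear) of the 5 NF-κB subunit genes and 6 inhibitor genes in MAEL WT (grey) and MAEL KO (red), 1 library each and no error bars. NFKB2 is highest in both libraries (97 and 91.7), and NFKBIZ goes from 2.35 to 8.25 while NFKBIA stays at 22.5.

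The TRAF adaptors divided by gene. TRAF1, an adaptor itself induced by NF-κB, had 497 and 227 counts (log2FC -0.92, interval -1.15 to -0.69, but -1.19 by total counts). TRAF5 had 533 and 264 (-0.80, interval -1.02 to -0.59, but -1.08 by total counts). TRAF2, which recruits BIRC3, had 1760 and 1079 counts (-0.50, interval -0.61 to -0.39), and TRAF3, which holds NIK in check, had 1961 and 1241 (-0.45, interval -0.55 to -0.35). TRAF4, known from epithelial cancers, had 2173 and 2669 counts (0.51, interval 0.42 to 0.59), TRAF6, which serves interleukin receptors, had 175 and 200 (0.40, interval 0.10 to 0.70) and TRAF7 had 1921 and 1885 (0.18, interval 0.09 to 0.28, but -0.09 by total counts). Hence 4 of the 7 genes were below 0 and 3 above, TRAF7 going below by total counts, and their summed FPKM was 81.87 in MAEL WT and 81.81 in MAEL KO.

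Genes of the pathway outside the rule were described from 3 lists. Of 56 intermediates between receptor and NF-κB (adaptors, ubiquitin enzymes, kinases and regulators), 54 met the count minimum, with a median log2FC of -0.11. Past a log2FC of 2, 1 was lower (1.85%) and none higher, both under the background shares given above. It was CARD14, a scaffold of epithelial cells, with 28 and 5 counts (-2.08, interval -4.00 to -0.88), and it was not past the threshold by the deposited FPKM ratio (-1.97) or with 5 added (-1.58). RBCK1, a subunit of the linear ubiquitin ligase, had 4147 and 922 counts (-1.96, interval -2.06 to -1.86), whereas the other subunits RNF31 (-0.41) and SHARPIN (-0.30) were nearer to 0. MALT1, a protease that acts with BCL10, had 752 and 1833 counts (1.49, interval 1.37 to 1.62), and MAP3K8, a kinase bound to NFKB1, had 431 and 1016 (1.45, interval 1.28 to 1.61). Of the 7 ligand and receptor genes whose names the rule does not match, 5 met the minimum. All 5 log2FC values were below 0, but the interval of RELT (-0.40 to 0.18) included 0. EDA2R, an ectodysplasin receptor with 10 and 1 counts, was past the threshold (8.64-fold lower, interval 1.23 to 375), beside 5.64% of all genes, and was at -1.24 with 5 added to the counts.

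Of 48 genes known as NF-κB targets in some cell type, 34 met the count minimum, and their log2FC values were spread widely in both directions. The median was -0.03, with 17 genes below 0 and 17 above. Past a log2FC of 2, 7 were lower (20.6%, beside 5.64% of all genes) and none higher. They were PTGS2 (390 and 1 counts), PLAU (85 and 3), BCL2A1 (18 and 1), PSMB9 (287 and 42), CSF1 (2270 and 390), IL15 (25 and 4) and CXCL8 (5434 and 1039). The intervals of BCL2A1 (-9.34 to -1.30) and IL15 (-4.42 to -0.90) spanned the threshold, and with 5 added both were short of it (-1.84 and -1.60). CXCL8, which encodes interleukin-8, had log2FC -2.18 (interval -2.27 to -2.08). At the other end VCAM1, an adhesion molecule, had 110 and 377 counts (1.98, interval 1.68 to 2.31), and the chemokine gene CCL20 had 733 and 2119 (1.74, interval 1.62 to 1.86). PTGS2 and CXCL8 are genes that the study singled out in these cells, so they are not independent of its choice. A κB match was found in 18 of 33 target promoter windows (54.5%) and in 6 of 49 windows of intermediates (12.2%), beside 11.3% of all promoter windows. The targets were listed because NF-κB is known to induce them, so their share is not independent of how the list was made. The share of the intermediates was close to the background. The plot by place in the pathway shows the spread of the targets on both sides of 0.

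**Figure D5:**
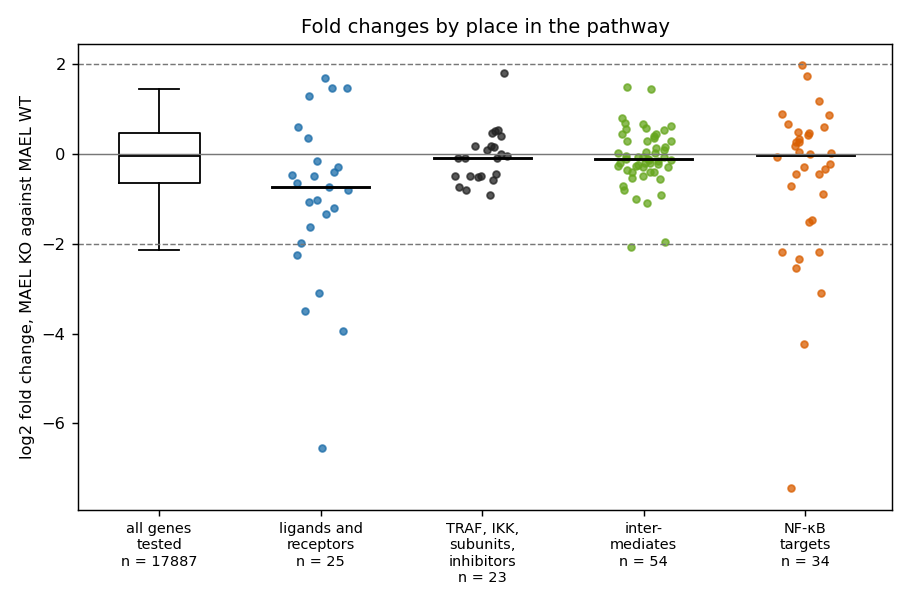
Log2FC between the libraries (y axis, negative where MAEL KO is lower), as a box for all 17887 genes (median, quartiles, and whiskers at percentiles 5 and 95) and as 1 point per gene with a black median line for 25 ligands and receptors, 23 TRAF, kinase, subunit and inhibitor genes, 54 intermediates and 34 targets. The medians are -0.04, -0.73, -0.08, -0.11 and -0.03, and fitted values with 1 added are shown, also for LTA, which had 0 counts in MAEL KO.

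The hepatocyte markers, whose summed FPKM was 1643 and 4879, moved between the libraries along with these differences. Leukocyte markers summed to 34.18 and 22.87, and ALB, the major plasma protein of hepatocytes, had 59 counts in MAEL WT and 8550 in MAEL KO. The part of a change in hepatocyte character in the values of the ligands and receptors was not tested.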

How the data were processed

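The authors sequenced RNA from PLC8024 cells, 1 library for MAEL WT and 1 for MAEL KO. The authors deposited read counts per gene, whole numbers without normalization, and FPKM values, scaled to gene length and to library sizes rescaled between the libraries. The submitters' processing notes name HISAT2 2.0.5, featureCounts 1.5.0-p3 and hg19, but the coordinates of all 58735 listed genes are those of GENCODE 29 on GRCh38, and the build used for alignment is uncertain. Whether counting used strand is not given in the sources used here.

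Counts were scaled by TMM in edgeR 4.0.16 (R 4.3.3), with factors of 1.10044 for MAEL WT and 0.90873 for MAEL KO over all genes. Genes that reached 10 counts in either library, 17887 in all, got a log2FC, positive where MAEL KO was higher, after 1 was added to each scaled count. Python 3.11.15 was used, with SciPy 1.17.1, NumPy 2.4.6, pandas 2.3.3 and, for plots, matplotlib 3.10.9. Values past 2 in size were counted. Intervals are 95% Clopper-Pearson limits on what part of a gene's counts fell in MAEL KO. No molecular identifiers were given, so reads may not be independent molecules, and these limits and the floor of 3 counts describe counting error alone. A gene at 0 in a library was given as a bound against that floor, and a gene at 1 to 3 counts as a ratio without added count. The steps were tested on simulated counts with planted changes and counting error alone. Such counts hold no variation between clones or libraries, so they give no error rate for this comparison.

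Levels of different genes were compared by deposited FPKM. Exon overlap was taken from GENCODE 29 without regard to strand. Values were given for members past 1 in size, the 5 of highest mean FPKM, the subunit, kinase, inhibitor and TRAF genes and neighbours within 50 kb, and for list genes past 2 and at each end of a list. Other genes, among them LTB, CD40, CD70 and the genes around LTBR, were named after their values were seen. The members and lists were chosen with earlier results of these data known.

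Alternatives were total counts, size factors of DESeq2 1.42.0, deposited FPKM ratios with 0.01 added, 0.1 or 5 added counts, other count minimums, protein-coding genes alone, a log2 threshold of 1, a DESeq2 Wald test, and the exact test of edgeR with the coefficient of variation set to 0.4 or 0.1, each at an adjusted p of 0.01. Members with at most 10% exon overlap were added after seeing the data. The tests compare the reads of 2 libraries and not the conditions.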

Additional observations from a re-analysis of the deposited data

How the results depend on the processing

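Of the 9 counts and medians of the members, intermediates and targets, recomputed under the alternatives, 75 counts or medians moved less than a limit (1.5 times for a count, the 95% order-statistic range of the list for a median), and the rest are given here. For members lower past the threshold, reported as 5, the count was 3 of 48 with 5 added (all genes 2.87%), 3 of 38 with at least 100 counts (2.35%), both times LTBR, TNFRSF9 and TNFSF14, 8 of 57 without a count minimum (5.9%), 11 at a log2 threshold of 1 (16.5%), 1 by edgeR's exact test with a coefficient of variation of 0.4 (LTBR, 0.212%) and 0 by the DESeq2 Wald test, which called 0 genes of 17887. It was 6, TNFSF4 being added, with total counts (7.32%), with 0.1 added (6.57%) and with protein-coding genes alone (5.01%). The count of members higher, reported as 0, was 5 at a log2 threshold of 1 (all genes 10.2%). For intermediates lower, reported as 1 of 54, the count was 2 with total counts (all genes 7.32%). At a log2 threshold of 1 it was 4 (7.41%), under the 16.5% of all genes. It was 0 with the FPKM ratio (6.05%), with 5 added (2.87%) and, of 50 genes, with at least 100 counts (2.35%). It was also 0 by edgeR's exact test with a coefficient of variation of 0.4 (0.212%) and by the DESeq2 Wald test. For intermediates higher, reported as 0, it was 2 at a log2 threshold of 1 (10.2%). For targets lower, reported as 7 of 34, the count was 5 with 5 added (all genes 2.87%) and 4 of 26 with at least 100 counts (2.35%). It was 1 by edgeR's exact test with a coefficient of variation of 0.4 (PTGS2, 0.212%) and 0 by the DESeq2 Wald test. For targets higher, reported as 0, it was 1 with DESeq2 size factors (VCAM1, all genes 2.28%) and 1 of 40 without a count minimum (CSF3, 3.42%). At a log2 threshold of 1 it was 3 (10.2%). With total counts the median was -0.73 for members, -0.38 for intermediates and -0.30 for targets, while the median of all genes moved from -0.04 to -0.31 and the genes past the threshold from 387 higher and 1008 lower to 269 and 1309. Fewer genes, another threshold or a test in place of a fold limit are part of how the alternatives are built, and no other cause was tested.

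Single genes kept their direction where they passed 1 in size under the 5 settings that change scaling, unit or added count. There were 0 reversals among 305 values of 61 genes. Another 5 values, of genes nearer to 0, changed sign, 4 of them with total counts (TRAF7, CHUK, NFKB1 and MAP3K14). The size of the log2FC was less stable. With total counts, 36 of the 61 genes left their counting interval, and these were all the values that did so under the 5 settings. TNFRSF10B, for example, went from -1.33 (interval -1.39 to -1.26) to -1.61. The intervals thus do not cover the choice of scaling. No paired analysis was possible because each genotype had 1 library. Depth limits the genes under 10 counts, LTA, whose bound is short of the threshold, and TNFSF4, TNFSF10, TNFSF11, TNFRSF10C, TNFRSF13C, TNFRSF14, TNFRSF25, CD27 and NFKBIZ, whose intervals span it. Leaving out a replicate was not possible with 1 library per genotype.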

Other observations

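Noncoding genes named after members gave values of their own. MAP3K14-AS1, antisense to the NIK gene, had 185 counts in MAEL WT and 52 in MAEL KO, a log2 fold change of -1.60 (95% counting interval -2.09 to -1.17), while MAP3K14 was at 0.16. CD27-AS1 had 56 and 20 counts (-1.24, interval -2.09 to -0.52) and the pseudogene IKBKGP1 had 58 and 27 (-0.87, interval -1.61 to -0.21). TNFRSF10A-AS1 had 97 and 85 counts (0.02, interval -0.42 to 0.45). Whether counting used strand is not given in the sources used here, so reads of these genes and of their partners cannot be told apart where exons overlap.

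FAS lay in a stretch of chromosome 10 with few reads in both libraries. Of the 10 protein-coding genes in a row from LIPJ to CH25H, which include FAS and ACTA2, 9 had 0 counts in both, and STAMBPL1 had 4 and 3. The genes on either side were read, RNLS with 66 and 58 counts and LIPA with 2668 and 2475. The low counts of this stretch were common to both genotypes, and its DNA was not examined.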
